A study of Mus musculus with 6 samples.

Results

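The genes of fatty acid oxidation, ketone synthesis and the PPARα response were followed in primary mouse hepatocytes with and without the succinate receptor gene *Sucnr1*. The members are 42 genes named by function (mitochondrial and peroxisomal β-oxidation, ketone bodies, ω-oxidation and the response to PPARα). They were listed by function, but with earlier results of these data known. They are 42 of the 25184 genes in the count table, all 42 passed the filter on low counts, and together they held 0.58 to 0.775% of the counts of a library. The study compared 3 *Sucnr1* fl/fl with 3 Hep-*Sucnr1* KO mice. Mice of both genotypes carry floxed *Sucnr1* alleles, with loxP sites on both sides of exon 2, on a C57BL/6J background. Hep-*Sucnr1* KO mice also carry the *Alb-Cre* transgene in 1 copy (Alb-Cre+/−), whose albumin promoter limits Cre to hepatocytes, and the controls are Cre-negative, so the deletion and the presence of Cre cannot be told apart. All mice were fed chow, and the labels do not give their age. Hepatocytes were isolated by enzymatic perfusion and a density gradient, kept overnight on collagen in high-glucose medium with serum, and sequenced as stranded mRNA libraries. RNA of *Sucnr1* fl/fl 1 and KO 3 was extracted on day 1, and RNA of *Sucnr1* fl/fl 2 and 3 and of KO 4 and 5 on day 2.

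Fatty acids enter the hepatocyte, are activated to acyl-CoA esters and pass into mitochondria as carnitine esters, where each round of β-oxidation shortens the chain and yields acetyl-CoA. Very long and branched chains start in peroxisomes, and cytochromes P450 of the Cyp4a family oxidize the far (ω) end of the chain. In the fasted liver acetyl-CoA from β-oxidation is turned into ketone bodies, and the nuclear receptor PPARα, bound to DNA with its partner RXR, raises the transcription of most of these enzymes.

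Total counts ranged from 30504248 to 38770694 per library. Counts were scaled to CPM (counts scaled to a common library size with edgeR's TMM factors), and levels of different genes were compared only as FPKM (CPM per kilobase of exon). Hepatocyte markers were high in all 6 libraries, with *Alb* between 37120 and 68925 CPM. *Sucnr1* counts were 258, 118 and 103 in *Sucnr1* fl/fl 1, 2 and 3 and 84, 28 and 5 in KO 3, 4 and 5. In CPM these were 6.71, 3.55 and 3.40 in controls and 2.66, 0.827 and 0.152 in KO 3, 4 and 5. KO 3, of day 1, was thus little below *Sucnr1* fl/fl 3, of day 2. It had 2.66 CPM against 6.71 CPM in *Sucnr1* fl/fl 1, the control of its own day. The cause of the spread among KO libraries was not tested. The gene-level count also covers exons that the loxP sites do not flank. Of the other marker lists, the summed CPM in controls and in Hep-*Sucnr1* KO libraries were 42.6 to 128 and 33.5 to 99.7 for 8 Kupffer cell genes, 26.7 to 49.2 and 20.8 to 35.2 for 8 sinusoidal endothelial genes, 5.97 to 24.8 and 4.73 to 9.78 for 8 stellate cell genes, and 350 to 512 and 426 to 650 for 6 cholangiocyte genes. Of the adipocyte markers *Adipoq*, *Plin1* and *Retn* were at or below 0.118 CPM in every library, and *Fabp4* was at 3.19 to 6.09 CPM. *Spp1* and *Sox9* carried nearly all of the cholangiocyte sum, the other 4 genes being at or below 2.61 CPM.

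The upstream sequences of 4 sites show what the data can be set against: the only member with a PPARα-like repeat in its window, both members with an unadjusted p below 0.05 between the genotypes that have a window, and the stretch between a pair of members that start head to head. They come from RefSeq windows on GRCm38.p6 and hold no base of the Ensembl gene models, and capitals mark a direct repeat of 2 receptor hexamers.
Fabp1, chr6:71199629-71199826, plus strand: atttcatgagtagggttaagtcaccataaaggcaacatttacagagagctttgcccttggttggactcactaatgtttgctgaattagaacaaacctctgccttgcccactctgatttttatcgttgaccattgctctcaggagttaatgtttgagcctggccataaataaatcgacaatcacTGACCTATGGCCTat
Creb3l3, chr10:81098875-81099122, minus strand: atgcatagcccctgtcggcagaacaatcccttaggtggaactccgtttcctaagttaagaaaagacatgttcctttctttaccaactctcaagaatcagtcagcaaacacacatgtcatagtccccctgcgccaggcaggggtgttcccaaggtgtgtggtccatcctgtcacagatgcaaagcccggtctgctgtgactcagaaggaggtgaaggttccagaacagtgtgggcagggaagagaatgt
Etfb, chr7:43443822-43444071, plus strand: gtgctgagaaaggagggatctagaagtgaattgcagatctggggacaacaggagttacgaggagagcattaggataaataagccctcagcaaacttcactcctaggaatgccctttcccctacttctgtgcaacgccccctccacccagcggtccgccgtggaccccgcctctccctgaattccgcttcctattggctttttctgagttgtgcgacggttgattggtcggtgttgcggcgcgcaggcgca
Hadha and Hadhb, chr5:30155163-30155247, plus strand: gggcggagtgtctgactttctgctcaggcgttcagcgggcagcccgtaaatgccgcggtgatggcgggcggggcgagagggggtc

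Windows of 250 bases before the start were given for 33 of the 42 members. The strict repeat AGGTCANAGGTCA, searched on both strands, was in 0 of the 33, and in 0.0407% of the 27018 genes with a window. The looser AGGNCANAGGNCA, which contains the strict form, was in 1 of the 33, *Fabp1*, and in 0.4% of all these genes. There it reads TGACCTATGGCCT and lies 67 bases before the RefSeq start, on the minus strand. The single hexamer AGGTCA was in 8 of the 33 members (24.2%) and in 15.8% of all 27018 genes with a window. These are matches of letters in a short window and say nothing of binding. *Hadha* and *Hadhb*, the subunits of the mitochondrial trifunctional protein, face away from each other, with 85 bases between their Ensembl gene models.

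The level per length differed widely between the roles. *Fabp1*, the liver fatty acid binding protein, was the most abundant member with 3014 ± 379 FPKM (SD, n = 3) in *Sucnr1* fl/fl and 2624 ± 370 (SD, n = 3) in Hep-*Sucnr1* KO hepatocytes. Next came *Acaa2*, the mitochondrial thiolase, with 325 ± 48.8 and 317 ± 19.6 FPKM, and *Acaa1b*, a peroxisomal thiolase, with 243 ± 7.21 and 245 ± 89.3 FPKM. The very long chain acyl-CoA synthetase *Slc27a2*, the lipid droplet coat gene *Plin2* and the ω-hydroxylase *Cyp4a12a* also had a mean over the 6 libraries above 100 FPKM, at 144, 140 and 115 FPKM. The overall means of *Slc27a2* and *Plin2* differed from each other by less than the spread between libraries. That spread reached 49.9 FPKM (SD, n = 3) for *Plin2* in Hep-*Sucnr1* KO hepatocytes. The 10 enzymes of mitochondrial β-oxidation had means between 14.1 FPKM for *Hadhb* and 321 FPKM for *Acaa2*. The receptor itself, *Ppara*, stood at 1.93 ± 0.515 and 1.77 ± 0.639 FPKM, and the lowest means were those of the 4 acyl-CoA thioesterases, from 0.237 FPKM for *Acot3* to 1.41 FPKM for *Acot1*, and of *Cyp4a31*, with 0.851 FPKM. The counts behind these values ranged from 15 for *Acot3* in *Sucnr1* fl/fl 2 to 71778 for *Fabp1* in *Sucnr1* fl/fl 1, and 37 of the 42 members had at least 100 counts in every library.

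**Figure D1:**
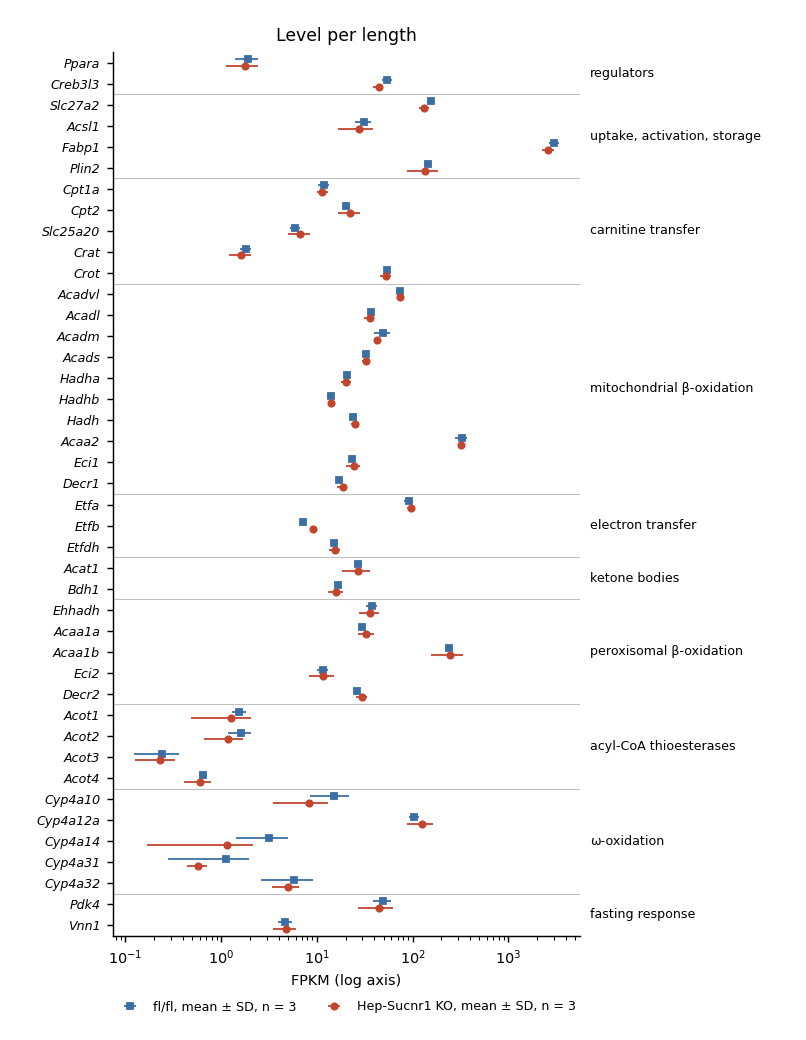
Mean FPKM (log axis) of each member in Sucnr1 fl/fl (squares) and Hep-Sucnr1 KO (circles) hepatocytes, with bars of 1 SD over 3 libraries, grouped by role. Fabp1 stands apart at 2819 FPKM over the 6 libraries and Acot3 is lowest at 0.237, and the symbols of the genotypes lie close together for nearly all genes.

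No member passed the threshold between the genotypes. Genotype was tested beside extraction day with edgeR (quasi-likelihood), and 0 of the 42 members and 0 of 15105 genes (0%) had an adjusted p below 0.05, and the lowest adjusted p of a member was 0.998. At an unadjusted p below 0.05 there were 3 of 42 members (7.14%) beside 3.73% of all genes, 1 of them higher (background 1.91%) and 2 lower (background 1.81%). DESeq2's Wald test also called 0 members, gave 2 members an unadjusted p below 0.05 and a lowest adjusted p of 1.00, and called 7 of all genes. The genotypes did not overlap in CPM for 3 members (7.14%), beside 10.6% of all genes. In 1 of them all KO libraries were higher (background 6.54%) and in 2 lower (background 4.04%). Of the 42 log2 fold changes, 15 were above 0 (35.7%, background 50.5%), with a median of −0.03 beside 0.00 for all genes tested. The direction of this count turned with the libraries used: it was 6 of 42 without KO 4, 24 without KO 3, 25 without *Sucnr1* fl/fl 1 and 28 without KO 5. Without KO 3 or *Sucnr1* fl/fl 1 only 1 library of day 1 is left, so both of these counts rest on day 2.

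The 95% interval of the log2 fold change lay within ±1 for 35 members and within ±0.5 for 19. The 7 members with wider intervals were *Acot1*, *Acot2*, *Acot3*, *Cyp4a10*, *Cyp4a14*, *Cyp4a31* and *Cyp4a32*. The labels do not tie the libraries to litters, and the p-values measure only the spread between these 6 libraries. In bulk RNA, fewer cells of a type and less RNA per cell cannot be told apart.

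**Figure D2:**
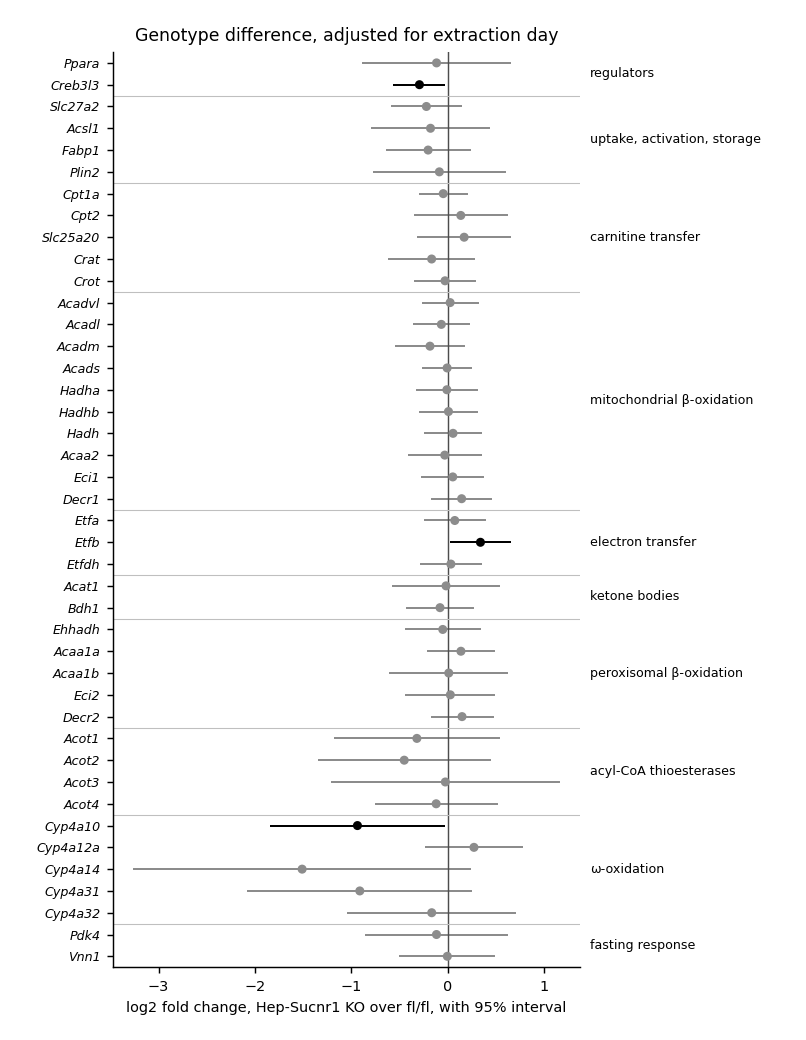
Log2 fold change of each member, Hep-Sucnr1 KO over Sucnr1 fl/fl, from the model with extraction day (points), with its 95% interval (lines). Black marks the 3 members with an unadjusted p below 0.05, Creb3l3, Etfb and Cyp4a10, and the intervals of the other 39 members include 0.

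Both regulators had lower fitted values in Hep-*Sucnr1* KO hepatocytes, and *Creb3l3* was 1 of the 3 members at an unadjusted p below 0.05. *Creb3l3* (ENSMUSG00000035041, chromosome 10 from 81084324 to 81098874), which encodes CREBH, a membrane-bound liver factor that acts with PPARα on the genes of fasting, had 185, 155 and 150 CPM in *Sucnr1* fl/fl 1, 2 and 3 and 149, 133 and 118 CPM in KO 3, 4 and 5. Every KO library was thus below every control, with KO 3 just under *Sucnr1* fl/fl 3. The log2 fold change was −0.29 (standard error 0.11, 95% interval −0.55 to −0.03), with an unadjusted p of 0.0319 and an adjusted p of 0.998 from edgeR. It was −0.31 on day 1 and −0.29 on day 2, and −0.34 to −0.25 with each library left out. The exact permutation test gave p = 0.1, the smallest that 3 against 3 allows. *Ppara* (ENSMUSG00000022383, chromosome 15 from 85734983 to 85802819) had 8.43, 8.63 and 5.11 CPM in controls and 6.17, 9.51 and 4.74 CPM in KO 3, 4 and 5. The highest and the lowest library were both Hep-*Sucnr1* KO libraries of day 2, and the log2 fold change of −0.12 (standard error 0.32) changed sign when any of 4 libraries was left out. These include *Sucnr1* fl/fl 1 and KO 3, the libraries of day 1, and without either the fit rests on day 2.

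Among the genes of uptake, activation and storage, all 4 log2 fold changes were below 0, from −0.22 to −0.09, and 0 had an unadjusted p below 0.05. Without KO 5, 2 of the 4 were above 0. *Slc27a2* (ENSMUSG00000027359, chromosome 2 from 126552407 to 126588243) had 542, 635 and 572 CPM in controls and 527, 538 and 435 CPM in KO 3, 4 and 5. The groups did not overlap, with a narrow gap between KO 4 and *Sucnr1* fl/fl 1, and the log2 fold change was −0.22 (standard error 0.15, unadjusted p = 0.183 from edgeR). *Fabp1* (ENSMUSG00000054422, chromosome 6 from 71199827 to 71205023), whose upstream repeat is printed above, had 1867, 1449 and 1685 CPM in controls and 1226, 1624 and 1504 CPM in KO 3, 4 and 5. Only KO 3 lay below all controls, and the log2 fold change of −0.20 (standard error 0.18) was 0.00 between the libraries of day 2. *Plin2* was lowest in KO 5, with 277 CPM against 465 to 584 CPM in the other 5 libraries.

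The carnitine shuttle showed small differences of mixed sign, 2 of 5 log2 fold changes being above 0. *Cpt1a*, which makes carnitine esters at the outer mitochondrial membrane and controls entry into β-oxidation, had 78.5, 92.3 and 101 CPM in controls and 75.0, 96.9 and 91.3 CPM in KO 3, 4 and 5. Its log2 fold change was −0.05 (95% interval −0.29 to 0.20), the narrowest interval of the 42 members. In both genotypes the day 1 library was the lowest. Between the extraction days *Cpt1a* was the only member with an unadjusted p below 0.05, with a log2 fold change of 0.31 and an adjusted p of 0.559 from edgeR. *Crot*, the peroxisomal carnitine octanoyltransferase and the most abundant of the 5 per length, had 281, 294 and 310 CPM in controls and 265, 333 and 272 CPM in KO 3, 4 and 5, with a log2 fold change of −0.03 (standard error 0.13). *Slc25a20*, the carnitine-acylcarnitine carrier, had 25.3, 31.4 and 30.1 CPM in controls and 32.5, 40.6 and 24.0 CPM in KO 3, 4 and 5. Its log2 fold change of 0.17 (standard error 0.20) became −0.04 without KO 4.

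The mitochondrial β-oxidation enzymes had the lowest median coefficient of variation of the roles, 8.27% over the 6 libraries. Over 10 genes the median log2 fold change was 0.00, the range −0.18 to 0.14, and 5 were above 0. The coefficient of variation lay between 5.39 and 14.8% here. For the electron transfer genes it had a narrower range, 8.73 to 13.6%, and a median of 9.71%. *Acaa2* had 547, 408 and 523 CPM in controls and 461, 467 and 515 CPM in KO 3, 4 and 5, so all 3 KO values fell inside the range of the controls (log2 fold change −0.03, standard error 0.16). *Hadha* had 190, 170 and 177 CPM in controls and 159, 200 and 175 CPM in KO 3, 4 and 5. Its head-to-head neighbour *Hadhb* had 98.7, 83.9 and 96.3 CPM in controls and 84.9, 99.5 and 96.3 CPM in KO 3, 4 and 5. Neither separated the genotypes, and in both KO 4 was the highest library.

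In the electron transfer chain of β-oxidation all 3 log2 fold changes were above 0, but only 1 of 3 was without *Sucnr1* fl/fl 2 or with a term for the index group described below, and *Etfb* had the highest log2 fold change of the 42 members, which did not pass the threshold. *Etfb* (ENSMUSG00000004610, chromosome 7 from 43444083 to 43457800) encodes the β subunit of the electron transfer flavoprotein, which takes electrons from the acyl-CoA dehydrogenases. It had 8.79, 8.36 and 8.11 CPM in controls and 10.5, 11.3 and 10.1 CPM in KO 3, 4 and 5. All 3 KO libraries were above all controls, and the spread within each genotype was at most 0.599 CPM (SD, n = 3). The log2 fold change was 0.34 (standard error 0.13, 95% interval 0.04 to 0.64), with an unadjusted p of 0.033 and an adjusted p of 0.998 from edgeR. It was 0.26 on day 1 and 0.38 on day 2, and 0.28 to 0.38 with each library left out. DESeq2 gave an unadjusted p of 0.0692. *Etfa*, the partner α subunit, had 169, 148 and 183 CPM in controls and 161, 187 and 179 CPM in KO 3, 4 and 5, with overlapping groups and a log2 fold change of 0.07 (standard error 0.13). Per length *Etfb* was at 8.19 and *Etfa* at 93.4 FPKM over the 6 libraries.

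The ketone body enzymes *Acat1*, a mitochondrial acetoacetyl-CoA thiolase, and *Bdh1*, which interconverts acetoacetate and β-hydroxybutyrate, did not separate the genotypes. *Acat1* had 114, 97.4 and 94.1 CPM in controls and 75.0, 140 and 91.3 CPM in KO 3, 4 and 5. The 3 KO libraries held the lowest and the highest value, and the log2 fold change was −0.02 (standard error 0.23), −0.60 on day 1 and 0.24 on day 2. *Bdh1* had 62.3 to 68.4 CPM in controls and 51.5, 73.7 and 60.7 CPM in KO 3, 4 and 5.

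Of the 5 peroxisomal β-oxidation genes 4 had a log2 fold change above 0, within −0.05 to 0.15, and 0 had an unadjusted p below 0.05. Those above 0 were 1 of 5 without KO 4, 5 of 5 without KO 5 and 2 of 5 with library size alone as the scaling. *Acaa1b* had 468, 470 and 493 CPM in controls, a spread of 14.1 CPM (SD, n = 3), and 439, 674 and 332 CPM in KO 3, 4 and 5, a spread of 175 CPM (SD, n = 3). The log2 fold change was 0.01 (standard error 0.25) and its sign depended on the scaling. *Acaa1a* and *Acaa1b* share 96.5% of their coding bases, with an identical stretch of 327 bases, so reads may have been divided between them. The bifunctional enzyme *Ehhadh* had 95.5 to 123 CPM in controls and 93.6, 139 and 93.1 CPM in KO 3, 4 and 5.

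The acyl-CoA thioesterases *Acot1*, *Acot2*, *Acot3* and *Acot4*, which free fatty acids from CoA, lie side by side on chromosome 12 between 83987861 and 84060402. All 4 log2 fold changes were below 0, from −0.45 to −0.02, with 0 at an unadjusted p below 0.05. Without KO 5, and likewise with the index group as a term, 2 of the 4 were above 0. The median of −0.22 was 0.04 without KO 5 and −0.72 without KO 4. *Acot1* had 5.18, 7.16 and 5.87 CPM in controls and 3.23, 8.54 and 3.22 CPM in KO 3, 4 and 5. KO 4 was above all controls and the other KO libraries below all of them, giving a log2 fold change of −0.32 (standard error 0.36). Without KO 4 it was −0.87, with an unadjusted p of 0.00776 from edgeR. *Acot1* and *Acot2* share 95.5% of their aligned coding bases.

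Of the ω-oxidation genes *Cyp4a14*, *Cyp4a31*, *Cyp4a10* and *Cyp4a32* had the highest coefficients of variation of the 42 members, from 43.0 to 78.5%, and *Cyp4a12a* had 24.6%. The 5 genes form a cluster on chromosome 4 between 115299046 and 115621602, and *Cyp4a10*, *Cyp4a31* and *Cyp4a32* share 96 to 97.2% of their coding bases pairwise, so the division of reads among these 3 is uncertain. *Cyp4a10*, a lauric acid ω-hydroxylase and a classic PPARα target, had 26.1, 47.2 and 21.9 CPM in controls and 9.69, 28.7 and 13.8 CPM in KO 3, 4 and 5. KO 4 lay above 2 of the 3 controls, so the groups overlapped. The log2 fold change was −0.94 (standard error 0.38, 95% interval −1.84 to −0.04), with an unadjusted p of 0.0432 and an adjusted p of 0.998 from edgeR. It was −1.42 on day 1 and −0.69 on day 2, −1.37 without KO 4 and −0.65 without *Sucnr1* fl/fl 2. *Cyp4a14* had 12.1, 9.68 and 3.17 CPM in controls and 1.17, 1.89 and 5.92 CPM in KO 3, 4 and 5, a 10.4-fold range. The lowest 2 libraries were KO 3 and KO 4, while KO 5 was above *Sucnr1* fl/fl 3, and the log2 fold change was −1.51 (standard error 0.73, unadjusted p = 0.0794 from edgeR). It was the only member with a log2 fold change beyond ±1, beside 1.95% of all genes, and it ranged from −2.42 without KO 5 to −0.72 without *Sucnr1* fl/fl 1. *Cyp4a31* had 1.74, 5.26 and 1.45 CPM in controls and 1.23, 1.27 and 1.85 CPM in KO 3, 4 and 5. Its log2 fold change of −0.91 (standard error 0.49) rested on *Sucnr1* fl/fl 2 and was −0.16 without it.

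The index numbers in the sample descriptions were split into 2 groups, low and high, which set *Sucnr1* fl/fl 1 and 2 apart from the remaining 4 libraries. With the index group as a further term the log2 fold change of *Cyp4a10* was −0.08, that of *Cyp4a14* 0.05 and that of *Cyp4a31* 0.30, and 4 of the 5 genes were above 0. In this fit the genotypes are set apart largely by *Sucnr1* fl/fl 3, the only control in the group of the KO libraries, and whether the index group stands for any technical step is not given. *Cyp4a12a*, the male-biased member of the family, went the other way, with 248, 223 and 282 CPM in controls and 242, 413 and 266 CPM in KO 3, 4 and 5 (log2 fold change 0.27, standard error 0.21). KO 3 and KO 5 lay within the range of the controls, and the log2 fold change of *Cyp4a12a* was 0.03 without KO 4. Its reads may be shared with *Cyp4a12b*, with which it has 98.5% of coding bases in common.

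**Figure D3:**
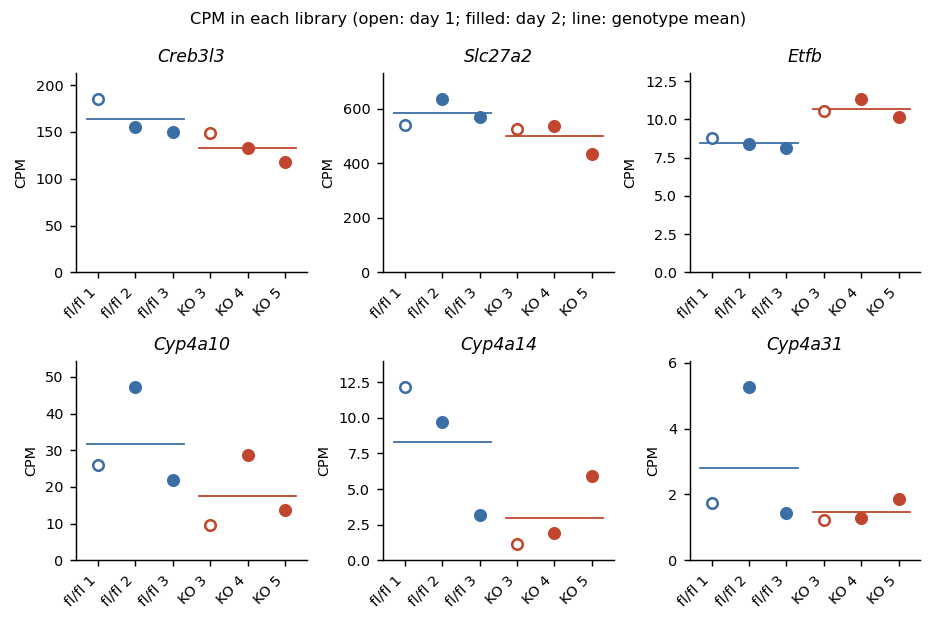
CPM (linear axis from 0) of 6 members in each library, with day 1 libraries as open and day 2 libraries as filled circles and lines at the mean of each genotype (n = 3). Creb3l3 and Slc27a2 are lower and Etfb is higher in every KO library, with narrow gaps, whereas the Cyp4a genes overlap between the genotypes and Cyp4a31 is high in Sucnr1 fl/fl 2 alone.

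*Pdk4* and *Vnn1* are induced by fasting through PPARα. *Pdk4*, the pyruvate dehydrogenase kinase that spares pyruvate while fat is burnt, had 207, 174 and 135 CPM in controls and 156, 220 and 94.7 CPM in KO 3, 4 and 5, and its log2 fold change was −0.12 (standard error 0.31). KO 4 was above and KO 5 below all controls. *Vnn1*, a pantetheinase, had 9.56 to 13.3 CPM in controls and 8.77, 14.8 and 11.0 CPM in KO 3, 4 and 5.

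Many members moved together within the Hep-*Sucnr1* KO group. KO 4 was above KO 5, both of day 2, for 38 of the 42 members (90.5%), beside 49.1% of all genes, and KO 4 was the highest library for 27 members (64.3%, background 19.3%). The median ratio of KO 4 to KO 5 was 1.25. As a median log2 difference this was 0.32, beside −0.01 for all genes tested. The shift was not particular to the members. Of the 73 further pathway genes tested, described below, 57 were higher in KO 4 than in KO 5, with a median log2 difference of 0.30. The ratio was at least 1.5 for 17 members and at least 2 for 8. The share of all genes at these ratios was not counted. The ratio reached 2.65 for *Acot1*, 2.33 for *Pdk4*, 2.29 for *Acot3*, 2.08 for *Cyp4a10* and *Plin2*, 2.03 for *Acaa1b*, and 2.01 for *Ppara* and *Acsl1*, which encodes the main acyl-CoA synthetase. By contrast it lay between 0.907 and 1.25 over the mitochondrial β-oxidation enzymes and between 1.04 and 1.24 over the electron transfer genes. The exceptions with KO 5 above KO 4 were *Cyp4a14* (ratio 0.319), *Cyp4a31* (0.686), *Acaa2* (0.907) and *Acadm* (0.934), the medium chain acyl-CoA dehydrogenase. *Sucnr1* fl/fl 2 was above *Sucnr1* fl/fl 3, also both of day 2, for 20 of the 42 members (47.6%), beside 46.7% of all genes. Between these controls the ratio was at least 1.5 either way for 7 members and at least 2 either way for 4. It was 3.63 for *Cyp4a31* and 3.06 for *Cyp4a14*, above the highest ratio of KO 4 to KO 5, 2.65. For *Cyp4a14* the KO libraries were as far apart in the other direction. Its log2 ratio was −1.65 for KO 4 over KO 5 and 1.61 for *Sucnr1* fl/fl 2 over 3. The lowest library was KO 3 for 15 members (35.7%, background 16.3%) and KO 5 for 14 (33.3%, background 16.7%). These are descriptions of single libraries with no test.

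**Figure D4:**
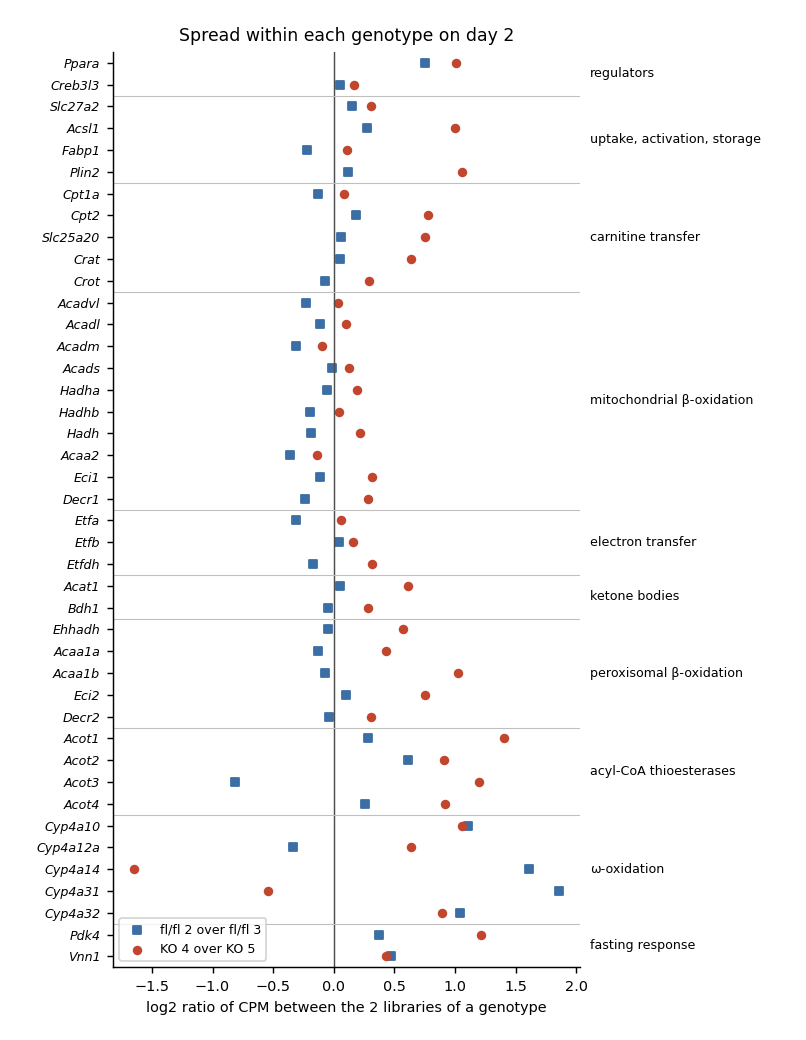
Log2 ratio of CPM between the day 2 libraries of each genotype for each member, Sucnr1 fl/fl 2 over 3 (squares) and KO 4 over 5 (circles). The circles lie right of 0 for 38 of 42 members and the squares for 20, and the widest values are those of the Cyp4a and Acot genes.

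Other measured lists moved with these libraries. The summed CPM of 9 pericentral genes, which mark hepatocytes around the central vein, was 7033 in KO 4 and 1823 in KO 5, beside 2764 to 4166 in controls and 3082 in KO 3. That of 8 periportal genes was lowest in KO 4, 3929 CPM against 4175 to 6382 in the other 5 libraries. Kupffer cell genes were lowest in KO 3, with 33.5 CPM, of which *Cd68* alone gave 29.0 CPM. Each of the other 7 Kupffer genes was lowest in KO 3, as *Cd5l* was with 0.855 CPM against 6.68 to 23.8 CPM in the other 5 libraries and *Clec4f* with 1.90 against 7.91 to 25.2 CPM. Of 15 clock genes 13 had a log2 fold change below 0 between the genotypes, with a median of −0.42 and 6 at an unadjusted p below 0.05 (background 3.73%), among them *Per1*, *Per2* and *Dbp*. These 6 were 3 without *Sucnr1* fl/fl 1, KO 3 or KO 4, 4 without *Sucnr1* fl/fl 2, and 9 without KO 5. With the index group as a further term they were 0 and the median was −0.08. The part of these lists in the members' values was not tested.

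**Figure D5:**
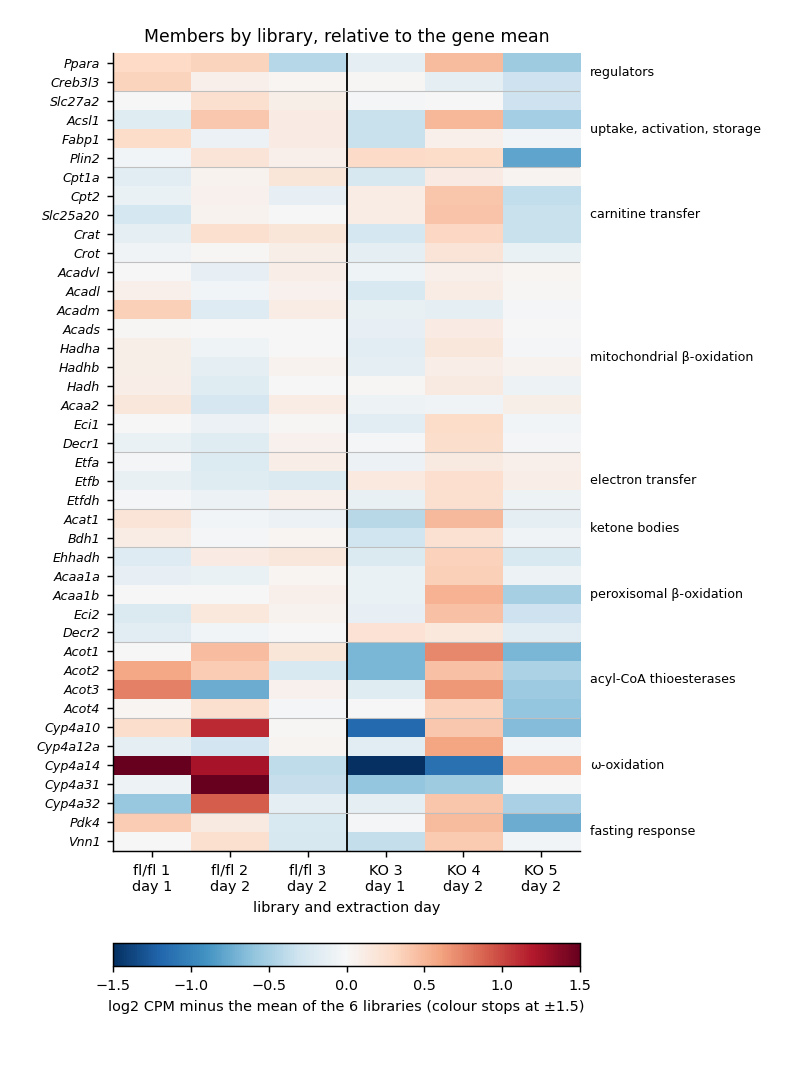
Log2 CPM of each member in each library minus the mean of the 6 libraries (colour, cut at ±1.5), grouped by role, with the extraction day under each library. KO 4 is the highest library for 27 of the 42 genes, and the strongest colours are those of the Cyp4a genes.

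Extraction day gave 0 members with an adjusted p below 0.05 in edgeR, 1 of 42 at an unadjusted p below 0.05 (2.38%, background 7.49%), and 0 past the threshold in DESeq2. The log2 fold change for day 2 over day 1 was above 0 for 32 of 42 members (76.2%, background 53.3%), and for 19 without KO 3. The interaction of genotype and day reached an adjusted p below 0.05 for 0 of 42 members and 0% of all genes in edgeR, and an unadjusted p below 0.05 for 0 members and 3.69% of all genes. On day 1, with 1 library per genotype, the median log2 difference of the members was −0.13, and on day 2 it was 0.02. It was below 0 on both days for 16 members (38.1%, background 24.3%) and above 0 on both for 6 (14.3%, background 26.5%).

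The rest of the pathway was read from 74 further genes, of which 73 were tested. In edgeR 0 had an adjusted p below 0.05, and 35 log2 fold changes were above 0 and 38 below. At an unadjusted p below 0.05 there were 2 of 73, beside 3.73% of all genes (563 of 15105). In DESeq2 0 had an adjusted and 2 an unadjusted p below 0.05. The genotypes did not overlap in CPM for 5 of 73, beside 10.6% of all genes (1598 of 15105). Among the partners and coregulators of the receptor 12 of 15 were below 0 (median −0.14). *Ppargc1a*, the coactivator PGC-1α that drives oxidative genes in fasting, had 4.08, 2.74 and 2.90 CPM in controls and 2.09, 1.57 and 2.52 CPM in KO 3, 4 and 5, with no overlap, and a log2 fold change of −0.63 (standard error 0.26, unadjusted p = 0.0445, edgeR). The largest value in this list was 0.17 (standard error 0.44) for *Pparg*. With the index group as a further term 9 of the 15 were above 0.

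Of 16 other peroxisomal genes 15 had a log2 fold change above 0, with a median of 0.11, and 10 of 16 were above 0 without KO 4. *Hacl1*, which cleaves 2-hydroxyacyl-CoA in the α-oxidation of branched chains, had 4.66, 4.75 and 5.70 CPM in controls and 6.05, 8.65 and 6.65 CPM in KO 3, 4 and 5, with no overlap (log2 fold change 0.49, standard error 0.18, unadjusted p = 0.0283, edgeR). The lowest in the list was *Abcd2*, a peroxisomal fatty acid transporter, at −0.06 (standard error 0.65). Of 17 other genes of the PPARα response 14 were below 0 (median −0.15). Those above 0 went from 3 to 7 without KO 5 and to 1 without KO 4, and the median was −0.31 without KO 4 and −0.05 without *Sucnr1* fl/fl 1. They ranged from −0.87 (standard error 0.43) for *Plin4*, a lipid droplet coat gene at or below 0.857 CPM in every library, to 0.31 (standard error 0.46) for *Aldh3a2*, a fatty aldehyde dehydrogenase with 137 CPM in KO 4 and 31.5 to 64.2 CPM in the other 5. In the smaller lists the extremes were 0.26 for *Acot7* and −0.09 for *Acacb* among 11 other mitochondrial genes (7 above 0), 0.11 for *Slc27a5* and −0.13 for *Acsl3* among 9 genes of uptake, activation and carnitine supply (4 above 0), and 0.34 for *Oxct1* and −0.28 for *Bdh2* among 5 ketone genes (3 above 0). None of these 6 genes had an unadjusted p below 0.05.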

How the data were processed

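RNA-seq of primary hepatocytes, 3 libraries per genotype, was analysed, with genotype and extraction day from the labels. The authors trimmed reads (Trim Galore 0.6.7), aligned them to GRCm38 (STAR 2.7.10a), counted read pairs per Ensembl gene with featureCounts, using strand, and deposited raw counts of 25184 genes. How multi-mapping pairs were counted is not given in the sources used here. Genes with a mean DESeq2-normalized count above 5 were kept (15105). Counts were tested with edgeR 4.0.16 (quasi-likelihood, TMM, extraction day and genotype, Benjamini-Hochberg over all genes, threshold 0.05) in R 4.3.3. Standard errors are the log2 fold change over the square root of F. Day-wise differences are of log2 CPM with a prior count of 2. DESeq2 1.42.0, other scalings, filters and covariates and left-out libraries were alternatives. FPKM used union exon lengths of the GENCODE M21 annotation. Coding bases are the longest open reading frame of a gene, aligned with Biopython. The fits were tested on simulated data.

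Values in every library are printed for *Ppara*, *Cpt1a*, the most abundant member per length of each role, members with an unadjusted p below 0.05 for genotype or an adjusted p below 0.05 for day, members without overlap, and the 3 largest log2 fold changes in each direction. In each further list the largest rise and fall are named. *Plin2*, *Hadha*, *Hadhb*, *Bdh1*, *Ehhadh*, *Vnn1*, *Acsl1*, *Acadm* and the clock genes were named after their values were seen. The members and lists were chosen with earlier results of these data known. Libraries held 30504248 to 38770694 counts, and the common biological coefficient of variation was 0.206.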

Additional observations from a re-analysis of the deposited data

How the results depend on the processing

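With edgeR 0 members passed an adjusted p of 0.05 under every alternative run, at 0.1 too, and DESeq2 called 0. DESeq2 called 7 genes between the genotypes where edgeR called 0. For extraction day it called 225 genes, and edgeR called 122 with no filter and 0 to 29 with each library left out (29 without *Sucnr1* fl/fl 2). Members with an unadjusted p below 0.05 in edgeR numbered 3, beside 563 of all 15105 genes. They were 1 with no covariate (575 of 15105 genes), 0 on day 2 alone (312 of 15122) and 0 with the index group (94 of 15105). With single libraries left out they were 0 without *Sucnr1* fl/fl 2 (537 of 15121 genes) and 3 without *Sucnr1* fl/fl 3 (486 of 15112). They were 5 without KO 4 (506 of 15039 genes) and 3 without KO 5 (832 of 15064). Members above 0 numbered 15, and 24 on day 2 alone and 6 to 28 with each library left out. Members higher on day 2 numbered 32, and 19 to 35 with each library left out. Leaving out *Sucnr1* fl/fl 1 or KO 3 leaves day 1 with 1 library, so these fits rest on day 2. The cause of the other differences was not tested.

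No call was lost, since none was made, but log2 fold changes turned sign, including those of *Cyp4a14* (−1.51) and *Cyp4a31* (−0.91). On day 2 alone that of *Ppara* was 0.038, of *Acaa2* 0.070, of *Acat1* 0.26 and of *Pdk4* 0.017. With the index group they were 0.45 for *Ppara*, −0.053 for *Etfa*, 0.18 for *Acat1*, 0.19 for *Pdk4*, 0.050 for *Cyp4a14* and 0.30 for *Cyp4a31*. *Acat1* was 0.0036 with no covariate. *Acaa1b* was −0.00996 with DESeq2 and with its size factors, −0.015 with library size alone and −0.0096 with no filter. With each library left out the values ranged from −0.50 to 0.086 for *Ppara*, −0.039 to 0.39 for *Slc25a20*, −0.12 to 0.043 for *Crot*, −0.16 to 0.076 for *Acaa2*, −0.032 to 0.15 for *Etfa*, −0.29 to 0.27 for *Acat1*, −0.35 to 0.24 for *Acaa1b* and −0.58 to 0.13 for *Pdk4*. Of the 42 members 16 changed sign with the index group, 11 on day 2 alone and 2 with DESeq2, and 0 with edgeR's own filter or a robust fit. No paired analysis was made, since the labels give no pairs. The genotypes share only the replicate number 3, and its libraries were extracted on different days. Extraction day was a term of the model instead.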
